A study of Mus musculus with 4 samples.

Results

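The SOX genes of the early mouse ureter were examined in 4 two-colour microarrays that compare ureter explants with and without a block of WNT secretion. A gene was taken as a member when the name given to a probe in the array files equalled Sox4, Sox11, Sox12, Sox5, Sox6, Sox13, Sox8 or Sox9. All 8 genes were found, among 29924 gene names on the array, and they carry 13 probes in total. Ureters of wildtype NMRI embryos were taken at E12.5 and kept in culture for 18 h in medium without serum. The treated explants received 10 µM IWP-2, and the control explants received the solvent DMSO at 2 parts in 1000. IWP-2 inhibits Porcupine, the enzyme that attaches the lipid that WNT ligands need to leave the cell, so it acts on WNT signals of every tissue in the explant. On each array the RNA of 1 pool of treated ureters was compared with that of 1 pool of control ureters. Treated RNA was labelled red on arrays 1 and 3 and green on arrays 2 and 4. The labels give the sex as not determined, and whether the pools of different arrays came from separate litters is not given in the sources used here. The tests thus reach no further than these 4 pairs of pools. For single genes the test (limma) has a dye term, so it starts from the spread between arrays of the same dye order. That spread is then drawn towards a value estimated over all genes tested. The SE of a gene with a wide spread, such as Sox9, is thereby smaller than its own 4 arrays alone would give. The SD printed beside a mean is taken over all 4 arrays and is not the spread used by that test. For Sox9 the SE of the fit was 0.113, beside an SD of 0.58.

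SOX proteins are transcription factors that bind and bend DNA through an HMG box, and they are sorted into groups by the likeness of this domain. The SOXC group (Sox4, Sox11, Sox12) holds activators of progenitor programmes in mesenchyme and neurons. The SOXD group (Sox5, Sox6, Sox13) lacks an activation domain of its own and works through partners, in cartilage through SOX9. The SOXE group (Sox8, Sox9, Sox10) acts in cartilage, gonad, neural crest and kidney. In the ureter, Sox9 is expressed in the mesenchyme and is required for the differentiation of smooth muscle cells, while Sox8 and Sox9 act together in the branching epithelium of the kidney.

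Probe sequences are shown where a result turns on them, as the first 30 of 60 bases, read 5′ to 3′ from the array files, with the letters GGA in capitals. The 3 probes of Sox5 are given because they disagreed. The Sox9 probe is given because the largest change among the 8 genes, by the brightest probe of each, rests on it.
Sox5 probe 1, brightest: GGAGGAGGAGGAagaGGAGGAGGAGGAaga
Sox5 probe 2: ttacaagcaaaaacgtcatcaagaagaaga
Sox5 probe 3: ctgggcccatgggcaaattcaatcagatgc
Sox9, its only probe: ataaaaccttaaagcgttcttataatatgg
The whole of Sox5 probe 1 consisted of 25 A and 35 G with no C and no T, and GGA occurred 16 times in it. Probes 2 and 3 held all 4 bases and no GGA. Per the files, probe 1 lies at chr6:143776945-143776971 (mm9, minus strand), a span of 27 bases, whereas probe 2 lies at chr6:143781520-143781579 and probe 3 at chr6:143787982-143788041, with 60 bases each. The Sox9 probe lies at chr11:112648809-112648868 on the plus strand.

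All 13 probes were well above background in both channels of every array. By the brightest probe of each gene, Sox9, Sox4, Sox12 and Sox6 were reduced by IWP-2 and Sox11 was increased, while Sox5, Sox13 and Sox8 did not pass the test (limma, adjusted p with 0.05 as the threshold). Thus 4 of the 8 genes were lower, against 15% of the 22461 genes tested, and 1 was higher, against 18.1%. In either direction 5 of 8 were called, against 33.1%. The Sox5 value in these counts comes from probe 1, the repeat of A and G printed above. With probe 2 in its place, an alternative chosen after seeing the data, 5 genes were lower. The median log2 ratio of the 8 genes was -0.18, and that of all genes tested was 0.0011. With the exception of Sox9, the changes were small, with 1.14-fold lower for Sox12 and for Sox6, 1.18-fold lower for Sox4 and 1.14-fold higher for Sox11. None of the 8 genes met the filter that the study used (intensity above 100 and a change above 2-fold on each array), and with a limit of 1.5-fold the count was also 0. Few genes met it at all. Of the 29924 gene names on the array, 105 were lower and 22 higher at 2-fold, and 207 and 109 at 1.5-fold. A lower signal in whole ureters may come from fewer cells of a type or from less RNA per cell, which cannot be told apart here.

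**Figure D1:**
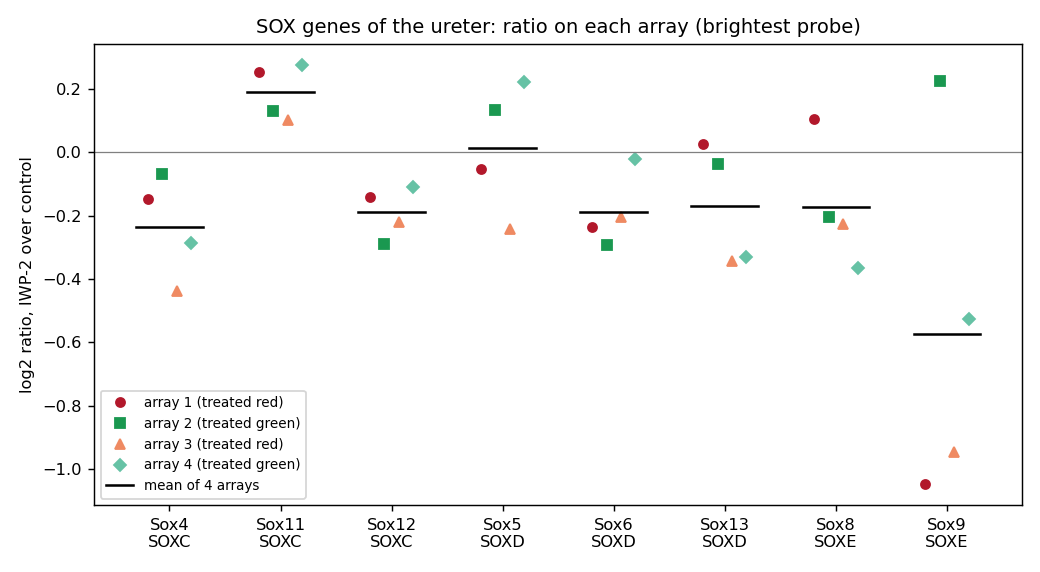
Log2 ratio of IWP-2 over control (y axis) for the brightest probe of each of the 8 SOX genes (x axis, with the SOX group), 1 point per array and a bar for the mean of 4 arrays. Sox4, Sox12 and Sox6 lie below 0 and Sox11 above 0 on all 4 arrays, and Sox9 spans from -1.05 on array 1 to 0.23 on array 2. For Sox5 the points are those of probe 1, the repeat of A and G.

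The response to the inhibitor was checked with Axin2, a feedback inhibitor and direct target of WNT signalling, whose ratios were -1.48, -1.68, -1.57 and -1.53, with a mean of -1.56 ± 0.085 (adjusted p = 1.23e-05, limma). Of 10 WNT target genes 8 fell, most of all the transcription factor gene Sp5 with -2.72, and of 9 smooth muscle genes 7 fell, most of all the calponin gene Cnn1 with -0.98, while Smtn rose by 0.13. All counts in this paragraph stand beside 15% lower and 18.1% higher among all genes tested. Markers of the tissues in the explant did not move alike. The ureteric epithelium markers were higher for 7 of 7 genes, from 0.24 for Cldn7 to 0.56 for Gata3. Of 6 ureteric mesenchyme markers, Tbx18 fell with -0.74, Pdgfrb rose with 0.80 and 4 were not called. Of 6 nephron progenitor markers 5 were higher, with Six2 at 1.14, and Crym was lower at -0.96. In the ureteric tip list 2 of 6 were higher, with Wnt11 at 0.55, in the blood and macrophage list 4 of 6, with Ptprc at 0.36, and in the neural crest and glia list 3 of 7, with Erbb3 at 0.43. The part of these shifts in the SOX values was not tested. Raw gene spot intensities had medians that ranged from 368 to 711 in the control channels and from 385 to 694 in the treated channels, and no spot was saturated.

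The SOXC genes were measured by 6 probes. Levels are given as log2 intensity, and they are compared between channels of the same probe and not between genes, since probes differ in brightness for equal amounts of RNA. The brightest Sox4 probe (chr13:29040826-29040885, mm9) read 16.23, 16.24, 16.52 and 16.18 in the control pools of arrays 1 to 4 and 16.08, 16.17, 16.08 and 15.89 in the treated pools. The treated pool was the dimmer one on 4 of 4 arrays. By this probe the groups did not overlap, but only just, with the lowest control at 16.18 and the highest treated pool at 16.17. The log2 ratios were -0.15, -0.07, -0.44 and -0.29, with a mean of -0.23 ± 0.16 (SD, n = 4; adjusted p = 0.0323, limma). The other Sox4 probes gave a mean of -0.21 ± 0.11 (chr13:29044482-29044541) and -0.34 ± 0.11 (chr13:29042856-29042915), each lower on 4 of 4 arrays. By both of these probes the groups overlapped, with controls down to 13.06 and 11.70 and treated pools up to 13.19 and 11.81. The share of all probes without overlap is not given here. With every probe fitted on its own, the adjusted p was 0.03, 0.0105 and 0.0036 in the order of brightness. The call by the brightest probe was lost without array 3 (-0.16, adjusted p = 0.126) and without array 4 (-0.18, adjusted p = 0.103).

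Sox11 moved the other way. Its brighter probe (chr12:28020087-28020146) read 13.85, 14.16, 14.21 and 14.06 in the control pools and 14.10, 14.29, 14.31 and 14.34 in the treated pools. The treated pool was the brighter one on each array, but the groups overlapped, since the treated pool of array 1 was below 2 of the control pools. The log2 ratios were 0.25, 0.13, 0.10 and 0.28, with a mean of 0.19 ± 0.087 (SD, n = 4; adjusted p = 0.0245, limma). The second Sox11 probe (chr12:28019541-28019600) gave 0.19, 0.23, 0.15 and 0.34, with a mean of 0.23 ± 0.08 (adjusted p over all probes = 0.00747). The call by the brighter probe was lost without array 1 (0.15, adjusted p = 0.103) and without array 4 (0.15, adjusted p = 0.0977).

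Sox12 was lower on 4 of 4 arrays. Its probe (chr2:152220036-152220095) read 10.55, 10.72, 10.69 and 10.44 in the control pools and 10.41, 10.43, 10.47 and 10.33 in the treated pools. Controls 1 to 3 stood above all treated pools, and the control of array 4 lay within their range. The log2 ratios were -0.14, -0.29, -0.22 and -0.11, with a mean of -0.19 ± 0.081 (SD, n = 4; adjusted p = 0.0232, limma). The call was lost without array 2 (-0.14, adjusted p = 0.1) and without array 3 (-0.17, adjusted p = 0.095).

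The difference between 2 members was taken within each array, and an exact sign-flip permutation test (two-sided) was run for 7 pairs within the groups. With 4 arrays its smallest possible p is 0.125, so that no pair could pass 0.05. Sox4 minus Sox11 was -0.43 ± 0.17 and Sox11 minus Sox12 was 0.38 ± 0.042 (SD, n = 4). Both kept their sign on 4 of 4 arrays and reached the smallest p of the exact test, 0.125 (0.438 after adjustment over the 7 pairs). The Sox11 and Sox12 ratios thus ran in parallel, with a difference of 0.40, 0.42, 0.32 and 0.38 on arrays 1 to 4. Sox4 minus Sox12 was -0.04 ± 0.20 (exact permutation p = 0.875).

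Genes reported as targets of SOXC factors are the Hippo pathway factor Tead2, the neuronal tubulin Tubb3, the neuronal microtubule protein Dcx and the lymphatic and neural factor Prox1. None of these 4 genes passed the test, against 33.1% of all genes tested. Their adjusted p (limma) lay between 0.0503 for Tubb3 and 0.562 for Tead2. At an unadjusted p under 0.05 the count was 1, for Tubb3, with ratios of 0.38, 0.14, 0.16 and -0.01.

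**Figure D2:**
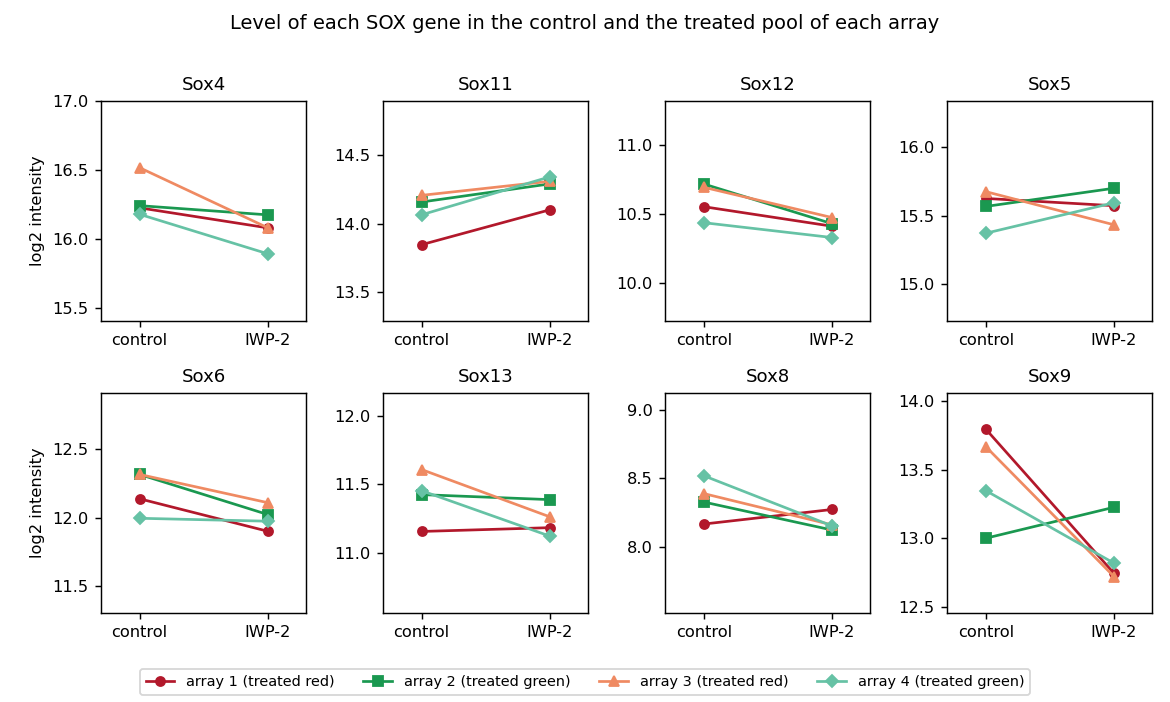
Log2 intensity after loess and Aquantile normalisation (y axis) of the brightest probe of each SOX gene in the control and the treated pool (x axis), with 1 line per array; every panel spans 1.6 log2 units. The lines fall on all 4 arrays for Sox4, Sox12 and Sox6, rise on all 4 for Sox11, and for Sox9 fall on arrays 1, 3 and 4 and rise on array 2. For Sox5 the lines are those of probe 1, the repeat of A and G.

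The SOXD genes differed by probe. Sox5 probe 1, the repeat of A and G printed above, read 15.62, 15.57, 15.67 and 15.37 in the control pools and 15.57, 15.70, 15.43 and 15.59 in the treated pools. The groups overlapped, the log2 ratios were -0.05, 0.13, -0.24 and 0.22, and the mean was 0.02 ± 0.21 (SD, n = 4; adjusted p = 0.836, limma).

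Sox5 probe 2 read 7.93, 7.95, 7.93 and 8.01 in the control pools and 7.63, 7.59, 7.48 and 7.66 in the treated pools. The groups did not overlap, and the log2 ratios were -0.30, -0.36, -0.44 and -0.35, with a mean of -0.36 ± 0.06. Probe 3 read 7.39, 7.43, 7.33 and 7.32 in the control pools and 7.08, 7.02, 6.98 and 7.14 in the treated pools. Its groups did not overlap either, and the mean log2 ratio was -0.31 ± 0.097. With every probe fitted on its own (an alternative chosen after seeing the data), the adjusted p over all probes was 0.00154 for probe 2 and 0.00464 for probe 3 against 0.838 for probe 1. With probe 2 standing for Sox5, the gene was called lower and the count of lower SOX genes rose to 5.

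The array holds 23 probes made of A and G alone, all 23 of which were well above background. Their median log2 intensity was 15.16, against 9.05 over the 39429 gene probes. Whether other transcripts bind to Sox5 probe 1 was not tested. Its ratio was the reverse of the sign of probes 2 and 3 on arrays 2 and 4, where the treated RNA was green, and its mean was -0.15 on the arrays with treated RNA in red and 0.18 on those with treated RNA in green. Its dye term did not pass the test (-0.16, adjusted p = 0.178, limma), and none of the 22461 genes passed for this term in limma (0 genes, 4231 at an unadjusted p under 0.05).

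**Figure D3:**
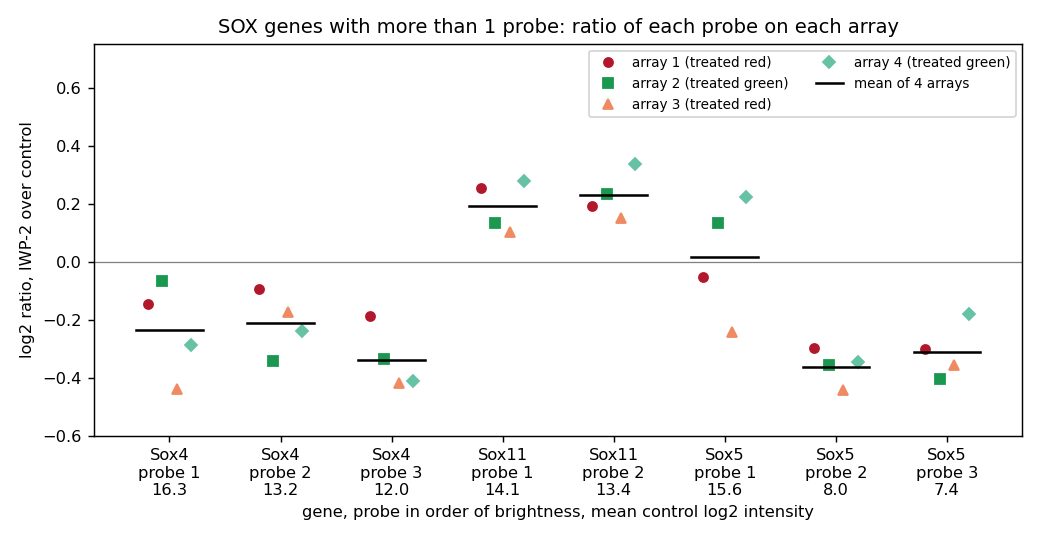
Log2 ratio of IWP-2 over control (y axis) for each probe of the 3 SOX genes with more than 1 probe (x axis, in order of brightness with the mean control log2 intensity), 1 point per array and a bar for the mean. The probes of Sox4 and those of Sox11 share a direction on every array, whereas Sox5 probe 1 lies around 0 (mean 0.02) and Sox5 probes 2 and 3 lie below it (-0.36 and -0.31).

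Sox6 was measured by 1 probe (chr7:122615418-122615477), which read 12.14, 12.31, 12.32 and 12.00 in the control pools and 11.90, 12.02, 12.11 and 11.97 in the treated pools. The treated pool was the dimmer one on each array, by little on array 4, and the groups overlapped. Its log2 ratios came to -0.24, -0.29, -0.21 and -0.02, with a mean of -0.19 ± 0.12 (SD, n = 4; adjusted p = 0.0374, limma). The call was lost without array 1, 2 or 3 (adjusted p = 0.111, 0.153 and 0.0947).

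Sox13, the remaining SOXD gene, did not pass the test. Its probe (chr1:135279099-135279158) read 11.16, 11.43, 11.61 and 11.45 in the control pools and 11.19, 11.39, 11.26 and 11.12 in the treated pools. Ratios on the log2 scale were 0.03, -0.04, -0.34 and -0.33, with a mean of -0.17 ± 0.19 (SD, n = 4; adjusted p = 0.135, limma). Arrays 1 and 2 showed ratios near 0, and arrays 3 and 4 lower ones. Without array 1 the value was -0.26 (adjusted p = 0.0425), whereas it was -0.078 without array 3 (adjusted p = 0.496) and -0.097 without array 4 (adjusted p = 0.421).

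Within the SOXD group, Sox6 minus Sox13 was -0.02 ± 0.29 (exact permutation p = 1). Sox5 minus Sox6 was 0.20 ± 0.19 with probe 1 and -0.17 ± 0.13 with probe 2 of Sox5 (exact permutation p = 0.25 and 0.125). Sox5 minus Sox13 was 0.19 ± 0.27 with probe 1 and -0.19 ± 0.16 with probe 2 (exact permutation p = 0.25 and 0.125). The sign of both differences thus depended on the Sox5 probe.

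Opposite-strand transcripts of these loci have probes of their own. Sox6os was at 0.03, -0.24, 0.01 and -0.31, a mean of -0.13 that passed the test (adjusted p = 0.048, limma) although 2 of 4 arrays were not lower. Its mean was 0.02 on the arrays with treated RNA in red and -0.27 on those with treated RNA in green. The dye term was 0.15 (adjusted p = 0.167, limma). The probe was dim, with a mean control level of 7.27, and in the fit over all probes it did not pass (adjusted p = 0.0503, limma). Sox5os1 had a mean of -0.08 (adjusted p = 0.186).

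By the brightest probe of each gene, Sox9 showed the largest mean change of the 8 genes and the largest spread. The rank of its mean depends on the Sox5 probe and the processing. In the deposited processed signals the log2 ratios were -0.47, -0.53, -0.65 and -0.50 for Sox5 probe 2. They were -0.60, -0.78, -0.69 and -0.34 for Sox5 probe 3, and -1.03, 0.21, -0.92 and -0.54 for Sox9. After loess, the Sox9 probe read 13.80, 13.00, 13.67 and 13.35 in the control pools and 12.75, 13.23, 12.72 and 12.82 in the treated pools. On arrays 1, 3 and 4 the treated pool was lower, and on array 2 it was higher. The control pool of array 2 was the lowest of the controls and its treated pool the highest of the treated ones, so that the groups overlapped through this array. The log2 ratios were -1.05, 0.23, -0.95 and -0.53, with a mean of -0.57 ± 0.58 (SD, n = 4), which is 1.49-fold lower (adjusted p = 0.0108, limma with a dye term). The SD was larger than that of 99.7% of the genes tested and of 99.9% of the 1000 genes of nearest intensity, and the median SD over all genes was 0.107. In comparison, the SD of the other 7 members ran from 0.081 for Sox12 to 0.21 for Sox5.

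The spread of Sox9 was between arrays and not between the spots of an array. The probe was printed in 4 spots, whose log2 ratios ranged from -1.12 to -0.97 on array 1, from 0.19 to 0.27 on array 2, from -0.98 to -0.91 on array 3 and from -0.56 to -0.50 on array 4. The SD was 0.36 over the control pools and 0.24 over the treated pools.

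Sox9 was also set against the order of the dyes. Its mean was -0.997 on the arrays with treated RNA in red and -0.15 on those with treated RNA in green, but the green arrays themselves differed, with 0.23 and -0.53. The dye term was -0.42 and did not pass the test (adjusted p = 0.167, limma). Without a dye term the mean remained -0.57 and the adjusted p was 0.0657, so that the call rests on this term. Without array 2 the fitted value was -0.76 (adjusted p = 6.43e-05), and without array 4 it was -0.39 (adjusted p = 0.0021).

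Genes of the Y chromosome differed between the pools of an array (genes chosen after seeing the data). Ddx3y, an RNA helicase gene, had log2 ratios of 0.21, 0.91, -1.20 and 0.20, and Eif2s3y, a translation factor gene, of 0.14, 0.83, -1.08 and 0.55. Xist, the transcript of the inactive X chromosome, had -0.17, -1.05, 0.31 and -0.16 by its brighter probe. Its other probe gave -0.31, -0.91, -0.08 and 0.01. Thus the treated pool of array 2 held more Y-linked RNA than its control pool, and less Xist by both probes. The treated pool of array 3 held less Y-linked RNA, while the direction of Xist there depended on the probe. The Y-linked genes also split by dye order, with means of -0.47 on the red and 0.71 on the green arrays for Uty and of -0.30 and 0.52 for Kdm5d, so that dye order and Y-linked RNA went together in part, with array 1 (0.21 for Ddx3y) apart from array 3 (-1.20). Over 4 Y-linked genes, with Uty and Kdm5d, the median level was 10.90, 10.79, 11.02 and 10.65 in the control pools and 11.01, 11.68, 9.95 and 11.02 in the treated pools. Set in the order of these medians, the treated pools of arrays 3, 1, 4 and 2 had Sox9 levels of 12.72, 12.75, 12.82 and 13.23. The medians of arrays 1 and 4 were nearly equal in this order. In the control pools, in the order of arrays 4, 2, 1 and 3, the Sox9 levels were 13.35, 13.00, 13.80 and 13.67, which did not rise throughout. With 4 pools in each group these orders are a description. Sox9 is a gene of testis support cells as well, and their markers Amh and Cst9 were not well above background on any array. Gata4 did not pass the test (-0.04), and Dhh and Nr5a1 were higher, with 0.30 and 0.25, on 4 of 4 arrays. The part of the sex makeup of the pools in the Sox9 values was not tested.

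Among the genes tested whose name occurs in the RefSeq table (17852 of 22461), the pattern of 4 ratios nearest to Sox9 was that of Tbx4, a T-box factor gene of mesenchyme, at a Euclidean distance of 0.59. Its ratios were -0.83, -0.28, -1.12 and -0.65. The gap junction gene Gja5 followed at 0.60, with -1.07, -0.08, -0.49 and -0.29, and the oestrogen receptor gene Esr1 at 0.62, with -0.81, -0.32, -1.11 and -0.45. These 3 genes were chosen for this likeness, so their shared pattern is a description. Unlike Sox9, their ratios on array 2 were below 0.

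Sox8, the other SOXE gene above background among the members, did not pass the test. Its probe (chr17:25703094-25703153) read 8.17, 8.33, 8.39 and 8.52 in the control pools and 8.27, 8.12, 8.16 and 8.16 in the treated pools. The 4 log2 ratios were 0.11, -0.20, -0.23 and -0.36, with a mean of -0.17 ± 0.20 (SD, n = 4; adjusted p = 0.0842, limma). Array 1 alone was higher, and without it the value was -0.26 (adjusted p = 0.0239), whereas without array 3 it was -0.089 (adjusted p = 0.332) and without array 4 -0.13 (adjusted p = 0.245). Sox8 minus Sox9 was 1.16, -0.43, 0.72 and 0.16, with a mean of 0.40 ± 0.69 (exact permutation p = 0.375, 0.525 after adjustment over the 7 pairs).

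Sox9 with Sox5 and Sox6 drives the genes of the cartilage matrix, and 8 of 10 such genes were above background. Of these 8 genes 5 were reduced and 0 were increased, against 15% and 18.1% of all genes tested. The median was -0.34, with medians on arrays 1 to 4 of -0.19, -0.24, -0.43 and -0.26. Col2a1, the main fibril collagen of cartilage, had ratios of -0.25, -0.59, -0.65 and -0.29, with a mean of -0.45 ± 0.20 (adjusted p = 0.00749, limma). The collagen IX genes, whose products coat these fibrils, had means of -0.44 for Col9a1, -0.40 for Col9a2 and -0.46 for Col9a3, and Col11a1, of the fibril core, had -0.27. All 5 were lower on 4 of 4 arrays, which includes array 2, on which Sox9 was higher, and without array 2 the count was again 5. A link between the Sox9 values and those of these genes was not tested. The remaining genes tested were Col11a2 with 0.03, the proteoglycan gene Acan with -0.05 and the link protein gene Hapln1 with 0.04, and Matn1 and Comp were not well above background on all arrays of a group. Col2a1 and Acan also stand in the list of cartilage and tendon cells, where the tendon factor Scx rose by 0.75 ± 0.19. The tendon gene Tnmd in that list had a mean of -0.27 ± 0.31, with all 4 ratios below 0, and did not pass the test (adjusted p = 0.079, limma).

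**Figure D4:**
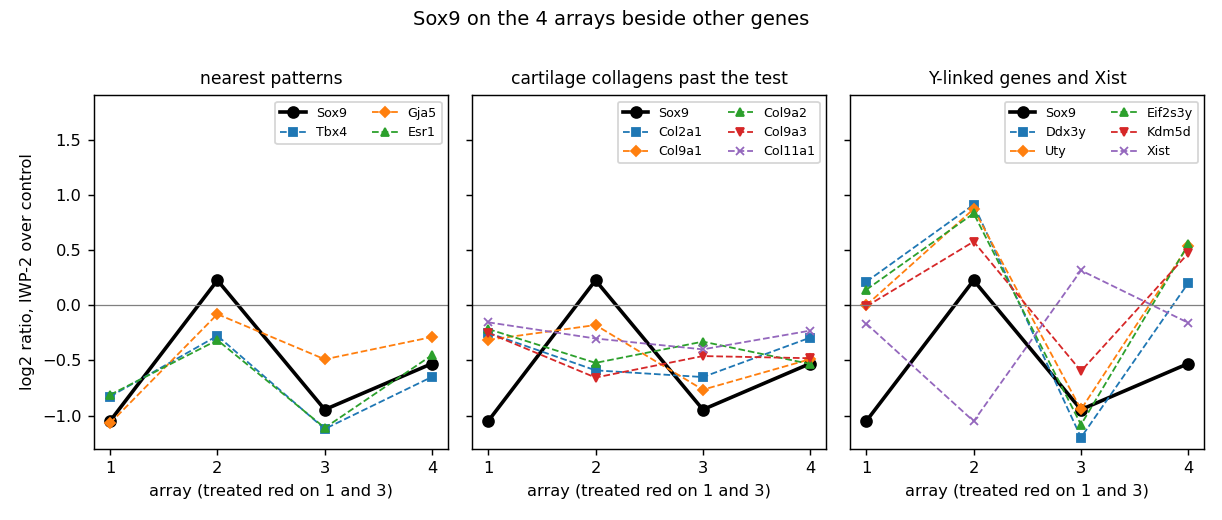
Log2 ratio of IWP-2 over control (y axis) on arrays 1 to 4 (x axis) for Sox9 (black) beside the 3 genes of nearest pattern (left), the 5 cartilage collagen genes past the test (middle) and 4 Y-linked genes with Xist (right). On array 2 Sox9 lies at 0.23, Ddx3y at 0.91 and Col2a1 at -0.59.

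Outside the 8 members the array carries 12 further SOX genes, of which 8 were above background, and 4 rose and 0 fell. Among all genes tested 18.1% rose and 15% fell. Sox2, a SOXB1 factor of neural and endodermal progenitors, had ratios of 0.91, 0.94, 0.65 and 0.88, with a mean of 0.85 ± 0.13 (1.8-fold higher; adjusted p = 0.000174, limma). The SOXF genes, which act in endothelium, were higher on 4 of 4 arrays each. Sox17 had 0.73, 0.74, 0.69 and 0.39, with a mean of 0.64 ± 0.17 (adjusted p = 0.000874), and its second probe gave 0.66. Sox7 rose by 0.25 ± 0.11 (adjusted p = 0.00827) and Sox18 by 0.23 ± 0.14 (adjusted p = 0.00793). Beside these, 4 of 6 endothelium markers were higher, from 0.15 for Kdr to 0.37 for Cldn5, and Tek and Emcn were not called (0.03 and 0.12). The part of endothelial RNA in the SOXF values was not tested.

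Of the others, the neural crest factor Sox10, also of the SOXE group, had 0.29, -0.14, -0.39 and -0.14 (adjusted p = 0.52), and Sox1 (0.06), Sox21 (-0.04) and Sox30 (0.06) did not pass. A dimmer Sox21 probe gave 0.22, with 4 of 4 arrays higher, and passed in the fit over all probes (adjusted p = 0.0229, limma). It was above background in the treated channel of 4 arrays and in the control channel of 2, so it entered that fit through the treated group alone. Sry, Sox3, Sox14 and Sox15 were not well above background on all arrays of either group.

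**Figure D5:**
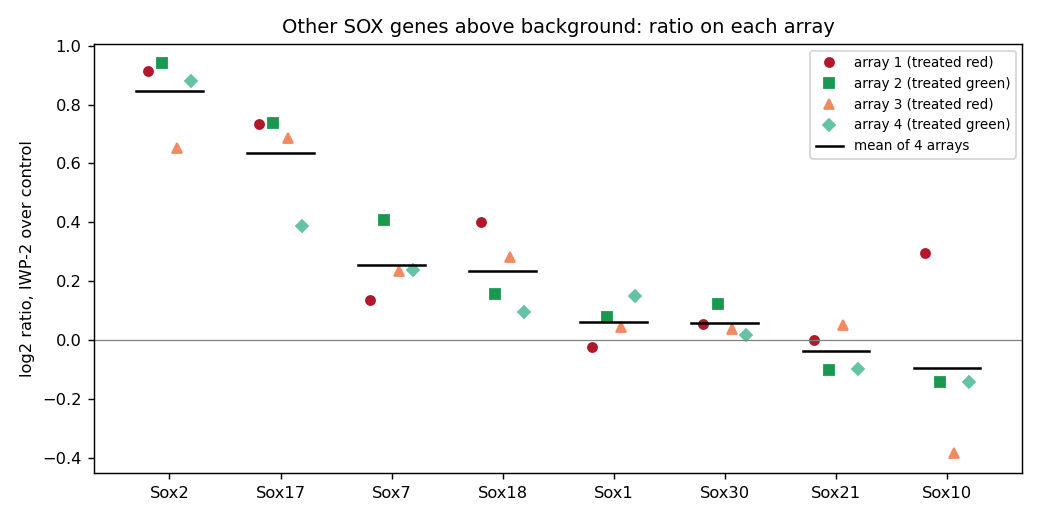
Log2 ratio of IWP-2 over control (y axis) for the 8 further SOX genes above background (x axis, ordered by mean), 1 point per array and a bar for the mean. Sox2, Sox17, Sox7 and Sox18 lie above 0 on all 4 arrays, and Sox2 is highest with a mean of 0.85.

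Promoter windows of 300 bases (250 before to 50 after a start) were found in the RefSeq table (GRCm38.p6) for 7 of the 8 members, with 12 windows of which 6 belong to Sox6. Letters that TCF and LEF factors can bind were searched on both strands, in the form CTTTGAA as well as with the endings changed, which gives CTTTGAT in place of the first form, then also CTTTGTA as another, and CTTTGTT as the last. They occurred in 5 of the 12 windows, all of Sox6, against 16.9% of all 32851 windows. The letters ACAATG, part of which SOX proteins recognise, occurred in 3 of the 12 windows, of Sox5 and Sox6, against 12.6% of all windows. None of these matches shared bases with a match of the former letters. Read on the other strand, CTTTGTT gives AACAAAG, which shares ACAA with ACAATG. These searches thus do not separate TCF and LEF sites from SOX sites. The Sox6 window with the most matches is printed, with the matches in capitals, because Sox6 is the only member with such letters that was called.
Sox6, chr7:115995037-115995336, minus strand, GRCm38.p6: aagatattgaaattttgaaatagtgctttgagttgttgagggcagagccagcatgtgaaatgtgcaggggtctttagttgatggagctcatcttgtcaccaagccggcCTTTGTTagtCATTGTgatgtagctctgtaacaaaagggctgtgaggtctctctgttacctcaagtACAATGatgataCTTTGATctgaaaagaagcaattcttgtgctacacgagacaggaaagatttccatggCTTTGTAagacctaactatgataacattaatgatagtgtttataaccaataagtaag
It holds 3 matches to the TCF and LEF letters and 2 to the SOX letters. The windows of Sox4, Sox11, Sox12, Sox13 and Sox8 held neither, which says nothing about binding elsewhere at these genes.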

How the data were processed

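The authors scanned the arrays with Agilent Feature Extraction 10.7.3.1, and the deposited intensity of each spot was used as the raw mean and median local background. The processed intensity deposited beside it had been background-subtracted and dye-normalised, per the file headers. The deposited series table holds 1 signed fold change per probe and array, a ratio rounded to 1 decimal. Its normalisation is unknown, its column medians were 1, and its direction was set from the processed ratios (r from 0.987 to 0.992 over 20404 probes with a mean processed signal over 100). The deposited log10 ratio of each spot served to check direction.

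Raw intensities were corrected by normexp (offset 50) and loess (span 0.3) in limma 3.58.1 (R 4.3.3). Each array has 157716 gene spots, 4 per probe, and 3.01% to 3.38% of these, marked as outliers, were left out. Tested were probes well above background in more than 0.5 of spots on all 4 arrays of a group, with the brightest for each gene. The log2 ratios of 22461 genes were fitted with treatment and dye terms, with Benjamini-Hochberg adjustment, and the fit was tested on simulated data. The array is the block that pairs a treated with a control pool. The offset draws ratios of dim probes towards 0. Levels are channel values after Aquantile. All arrays are on 1 slide. The members, the lists and the rule for naming genes (all members, tested other SOX and cartilage genes, the largest rise and fall past the test in other lists, 3 nearest patterns) were chosen with earlier results of these data known. Probe positions are mm9, as in the files.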

Additional observations from a re-analysis of the deposited data

Results flagged for a closer look

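In Sox17 the ratio of array 4 (0.39) stood apart from the other 3 arrays (0.69 to 0.74), with a gap of 0.858 of the whole range. It was the only one of 28 genes examined that passed Dixon's limit for 4 values, and chance flags about 1 in 20. The second Sox17 probe also had its lowest ratio on array 4, with 0.42 against 0.59 to 0.84 on the others.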

How the results depend on the processing

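Over 16 alternatives, 7 of the 8 members kept the direction of their mean, with ranges of -0.76 to -0.39 for Sox9, -0.31 to -0.16 for Sox4, -0.26 to -0.12 for Sox6, -0.23 to -0.14 for Sox12, 0.14 to 0.23 for Sox11, -0.26 to -0.08 for Sox13 and, in 15 alternatives since Sox8 has no value when a mean processed signal over 100 is asked for, -0.26 to -0.09 for Sox8. Sox5 did not, with -0.059 under median centring, -0.22 as the mean of its probes (adjusted p = 0.0102), -0.032 without array 1, -0.0073 without array 4 and up to 0.062 without array 3, and -0.36 or -0.31 by its other probes. The calls of the small changes did not hold throughout. The count of 4 lower members became 1 with processed signals and 0 with the series table, and the count of 1 higher member became 0 with the series table and with median centring. Without 1 array the counts ran from 1 (array 3) to 5 (array 1) for lower members, with 2 without array 2, and from 0 (array 1 or 4) to 1 for higher ones. With the 8 channels as separate samples, which drops the array as the replicate block, 1 member was lower, 0 were higher, and over all genes 2068 were lower and 2033 higher, against 3360 and 4069 in pairs. With the series table these were 2050 and 1833, and without 1 array 2177 to 2811 and 2879 to 3348. Sox9 lost its call with the series table (-0.61, adjusted p = 0.147) and without a dye term (-0.57). The cartilage gene count of 5 and the count of 4 other SOX genes became 1 and 2 with the series table and stayed at 4 or 5 and 3 or 4 in the others. Sox5 minus Sox6 and Sox5 minus Sox13 turned to -0.030 and -0.048 with the mean of probes, and to -0.17 and -0.19 with probe 2. Without 1 array, Sox6 minus Sox13 ran from -0.13 to 0.064, and Sox4 minus Sox12 from -0.13 to 0.013, Sox8 minus Sox9 from 0.15 (without array 1) to 0.68 (without array 2), Sox5 minus Sox6 from 0.13 (without array 2) to 0.28, and Sox5 minus Sox13 from 0.064 (without array 4) to 0.27. The cause of these shifts was not tested. A slide block was not run, since the arrays share 1 slide. The number of arrays limits the precision.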
